A study of Homo sapiens with 6 samples.

Results

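H3K4me1 shoulders are regions of monomethylated histone H3 lysine 4 that lay just outside regions of acetylated histone H3 lysine 27 (H3K27ac) in Calu-3 cells, an established human airway epithelial line from a lung adenocarcinoma. A region was counted as a shoulder when it shared no base with any called H3K27ac region and had the edge of one within 2000 bp. Of the 31950 H3K4me1 regions, 5296 met this rule, or 16.6% (exact 95% interval 16.2% to 16.99%). A further 14431 overlapped an H3K27ac region, and 12223 lay beyond the limit. The shoulders flanked 5258 of the 34638 H3K27ac regions, or 15.2% (14.8% to 15.6%). The members were chosen by the positions of the called regions in both mark lists, so the gaps, widths and scores of the marks below describe the selection and carry no test. The EHF lists were not used to choose them.

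The cells had no treatment named in the labels, and all libraries came from the same line. Of the 6 chromatin immunoprecipitation sequencing (ChIP-seq) libraries, 2 were replicates with an antibody to EHF, 1 each was made for H3K4me1 and H3K27ac, and 2 were input DNA. The interval lists called by the authors from the 4 immunoprecipitated libraries were used, in the build hg19. Depth was 10176290 tags in EHF replicate 1, 8418631 in replicate 2, 12989646 with H3K4me1 and 21426939 with H3K27ac. The replicate lists held 1537 EHF peaks (replicate 1) and 5216 (replicate 2), and 768 sites were found in both and are called shared EHF sites. Since each mark has 1 library, no comparison below has a test over samples, and the exact intervals given cover counting error only. The EHF values are given for each replicate.

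H3K4me1 is laid down largely by the methyltransferases KMT2C and KMT2D and is found at enhancers and on the flanks of active promoters. H3K27ac is made by the acetyltransferases CREBBP and EP300 and marks active enhancers and promoters. Around an active element the nucleosomes nearest to the bound factors often carry acetylation, and monomethylation can extend farther out or, at promoters, lie to the sides of the trimethylated start site. EHF (Ets homologous factor) belongs to the ETS family of DNA-binding proteins and is expressed in epithelia, including that of the airway. The data address where called H3K4me1 regions lie relative to called H3K27ac regions. They also address whether EHF peaks fall in the acetylated region or in its shoulder.

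Shoulders lay close to the acetylated regions. The gap, meaning the bases between a shoulder and the nearest H3K27ac edge, had a median of 627.5 bp and quartiles of 298 and 1115 bp. It was at most 250 bp for 1097 shoulders (20.7%), at most 500 bp for 2188 (41.3%) and at most 1000 bp for 3704 (69.9%). The number per 100 bp of gap was highest between 100 and 200 bp, with 499 shoulders, and stood at 374 below 100 bp. It was 123 between 1900 and 2000 bp. The 123 members just inside the limit had a median score of 23.2 per kb, and the 147 H3K4me1 regions in the next 100 bp outside it had 21.96 per kb. The count was thus somewhat higher in the first class outside the limit than in the last one inside it. The score is the authors' normalized tag count for an interval, scaled to 10000000 tags per library. Within each mark list neighbouring regions were at least 499 bp apart, but this spacing did not apply between the lists, and the smallest gap was 0 bp.

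**Figure D1:**
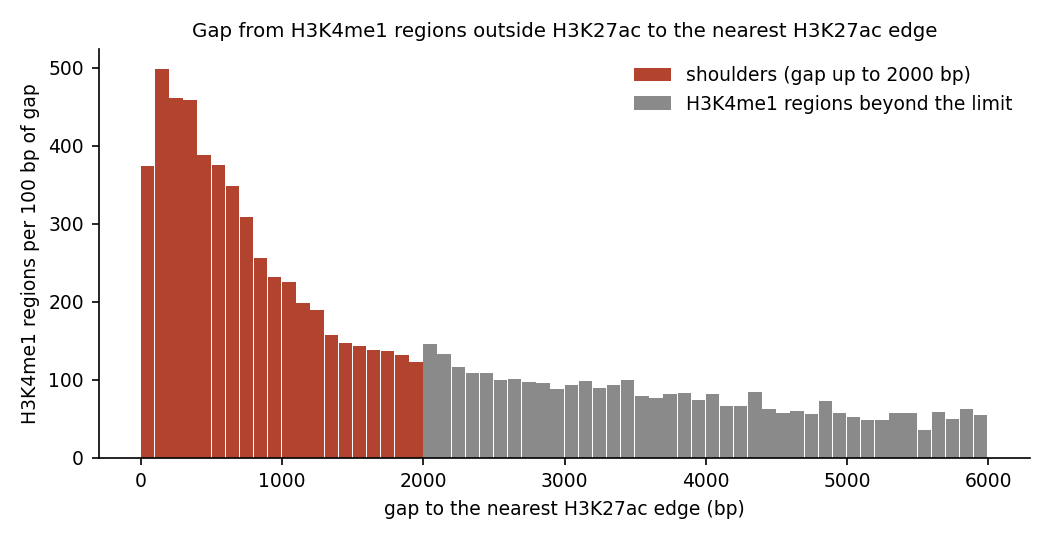
Number of H3K4me1 regions outside H3K27ac (y axis) per 100 bp of gap to the nearest H3K27ac edge (x axis, bp), for shoulders in red and regions beyond the limit in grey. Counts peak at 499 between 100 and 200 bp and decline to 123 in the last class inside the limit, with 146 in the next class (a class includes its lower end, so a gap of 2100 bp is not in it).

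Over all H3K27ac edges pooled, coverage by called H3K4me1 was highest inside the region, while shoulders lay outside it by the rule. The pooled profile does not describe single regions, since 3739 of the 5258 flanked regions (71.1%) overlapped no H3K4me1 region. Any H3K4me1 region covered 18.1% of the edges at a point 400 bp inside the H3K27ac region, 11.1% at the edge itself, 5.15% at 1000 bp outside and 3.34% at 4000 bp outside. Shoulders alone covered at most 3.46% of the edges, at 700 bp outside. At that distance all H3K4me1 regions together covered 5.46%, so that shoulders made up most of the called H3K4me1 there.

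**Figure D2:**
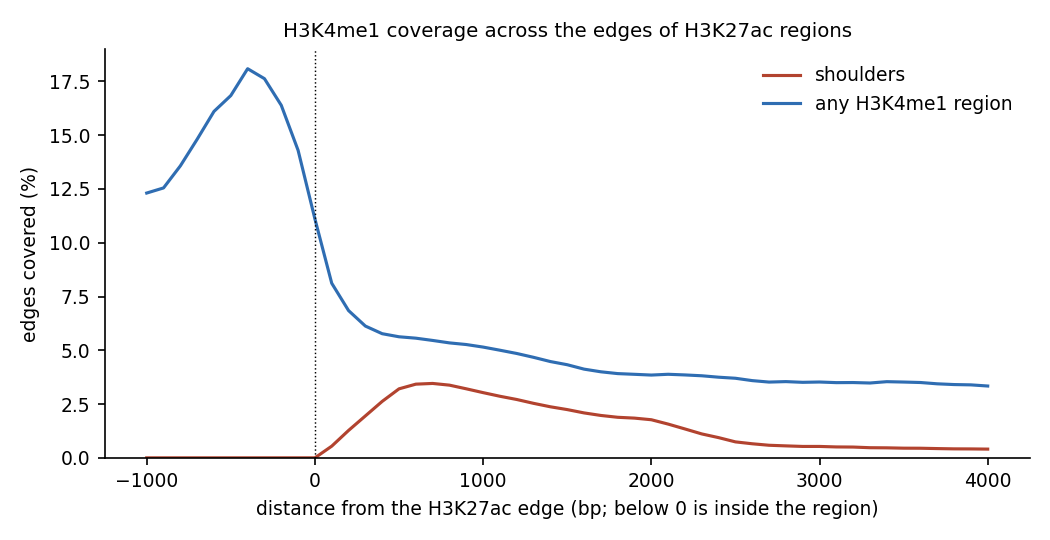
Percentage of the 69276 H3K27ac edges covered (y axis) against distance from the edge (x axis, bp, negative inside the region; inside points use regions wide enough to reach them). Shoulders (red) peak at 3.46% at 700 bp outside, and any H3K4me1 region (blue) peaks at 18.1% at 400 bp inside.

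Shoulders were short, low-scoring regions, as was much of the H3K4me1 list. Their median width was 501 bp, the smallest region in the list, with an upper quartile of 696 bp and a maximum of 5126 bp. Over all H3K4me1 regions the median width was also 501 bp, with an upper quartile of 789 bp. The median score was 13 in shoulders and 14 over all H3K4me1 regions. In all, 3173 shoulders (59.9%) had this smallest width, against 42.3% of the H3K4me1 regions that overlapped H3K27ac and 63.5% of those beyond the limit. The median score per kb was 22.8 for shoulders, 24.0 for overlapping regions, 21.96 beyond the limit and 23.2 over the whole list. By these values shoulders stood between the H3K4me1 regions that overlapped acetylation and those far from it, with small differences in score. Among shoulders, the score per kb had almost no rank relation with the gap (Spearman rho -0.04 across 5296 regions of one library). The median was 23.2 per kb for gaps under 250 bp and 21.96 per kb for gaps of 1500 bp and more.

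The highest-scoring shoulders show how far the group extends. The top one, at chr17:46127836-46132961, was also the widest, at 5126 bp, had a score of 146 and began 891 bp past an H3K27ac region of 2393 bp. The next, at chr19:34666523-34670877, scored 109 over 4355 bp, with a gap of 1761 bp to an H3K27ac region of 2323 bp. Both are wider than the H3K27ac region beside them. The shoulder at chr17:36086467-36088141 scored 106 and that at chr5:176727231-176729581 scored 97, with gaps of 1868 and 625 bp. The fifth, at chr17:38336545-38337045, had the smallest width and a score of 96, or 192 per kb, the highest density of any shoulder. It lay in the stretch from 37500001 to 39000000 on chromosome 17, where the scores of both marks and of EHF replicate 2 were high. The median score per kb of replicate 2 peaks was 284 inside the stretch (44 peaks) and 96 outside it. The 1 replicate 1 peak inside had 72.8 per kb, and the median outside was 59.6. That stretch held 4 shoulders of 17 H3K4me1 regions and 4 flanked regions of 34 H3K27ac regions. The median score per kb was 82.8 in those 4 shoulders and 22.8 in the others, 128 in the H3K4me1 regions inside the stretch and 23.2 outside it, and 318 in the H3K27ac regions inside and 27.9 outside.

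Flanking was almost always on one side. Of the 5258 flanked H3K27ac regions, 299 had shoulders on both sides, or 5.69% (5.08% to 6.35%), and 4959 (94.3%) on one side only. In those flanked on one side the shoulder lay on the side of lower coordinates in 2509 and on the side of higher coordinates in 2450, or 50.6% and 49.4%. Regions with a shoulder on one side had one on the other side somewhat more often than regions without. Of the 2808 regions with a low-side shoulder, 10.6% also had a high-side shoulder (9.53% to 11.8%), against 7.70% of the 31830 regions without a low-side shoulder (7.41% to 8.00%). The regions flanked on one side usually had no called region of either mark on the other. That side had no shoulder by definition, and the same share was not computed over all H3K27ac regions. It therefore cannot be called particular to regions flanked on one side. At 1000 bp outside, any H3K4me1 region covered only 5.15% of all H3K27ac edges. In 3792 of the 4959 (76.5%) the opposite 2000 bp held no called H3K4me1 or H3K27ac, in 815 (16.4%) it held part of some other H3K4me1 region, and in 614 (12.4%) another H3K27ac region.

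In the 299 regions flanked on both sides, the median gap was 610 bp on the low side and 619 bp on the high side. The gaps of the same region differed by a median of 454 bp (quartiles 222.5 and 842 bp) and were almost unrelated in rank (Spearman rho 0.04 across the 299 regions). The span between the inner edges of both shoulders had a median of 2893 bp (quartiles 2115 and 4173 bp). Of all flanked regions, 4884 had 1 shoulder, 361 had 2 and 13 had 3. The 5 widest regions with 3 shoulders were at chr2:26465229-26468545, chr12:53623820-53627115, chr18:59853460-59856086, chr5:132386471-132388819 and chr20:60717268-60719456. They were 2189 to 3317 bp wide, none overlapped an H3K4me1 region, and the one on chromosome 18 held 1 EHF peak, from replicate 2. The other 4 held no EHF peak.

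Some shoulders bridged a pair of acetylated regions. There were 349 of these (6.59%), with an H3K27ac edge within the limit on each side. Their nearer gap had a median of 408 bp and their farther gap 1218 bp, and the H3K27ac regions on either side stood a median of 2288 bp apart. The bridges linked H3K27ac regions into 336 pairs and 5 chains of 3. The remaining shoulders had H3K27ac only on their lower side (2445) or only on their higher side (2502), with median gaps of 641 and 649 bp.

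Flanked H3K27ac regions were of middling width. Their median was 1459.5 bp (quartiles 719 and 2331 bp). It was 1928 bp in the 10430 regions that overlapped H3K4me1 and had no shoulder, 1094.5 bp in the 18950 with neither, and 1370 bp over all H3K27ac regions. Against all 29380 regions without a shoulder the median was 108.5 bp higher, a small difference that turned to -51 bp when only the H3K27ac regions above the median score were kept. Regions flanked on both sides had a median width of 1534 bp and those flanked on one side 1455 bp. Flanking also varied little with width. In 5 width classes of about equal number, 13.7%, 14.3%, 15.9%, 16.6% and 15.6% of the H3K27ac regions were flanked, from narrow to wide. Over the same classes the share that overlapped H3K4me1 and had no shoulder was 19.1% in the narrowest and 52.1% in the widest. The longest flanked region, at chr12:59302708-59337562, was 34855 bp wide, with a shoulder 4 bp from its low edge and 1 overlapping H3K4me1 region. The next 4, at chr17:46636644-46660735, chr22:46459770-46483151, chr8:145008077-145028615 and chr18:55095813-55114257, were 18445 to 24092 bp wide. All 5 had 1 shoulder and no EHF peak of replicate 1. The region on chromosome 8 held 4 EHF peaks of replicate 2, those on chromosomes 12, 17 and 22 held 1 each, and that on chromosome 18 held none.

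**Figure D3:**
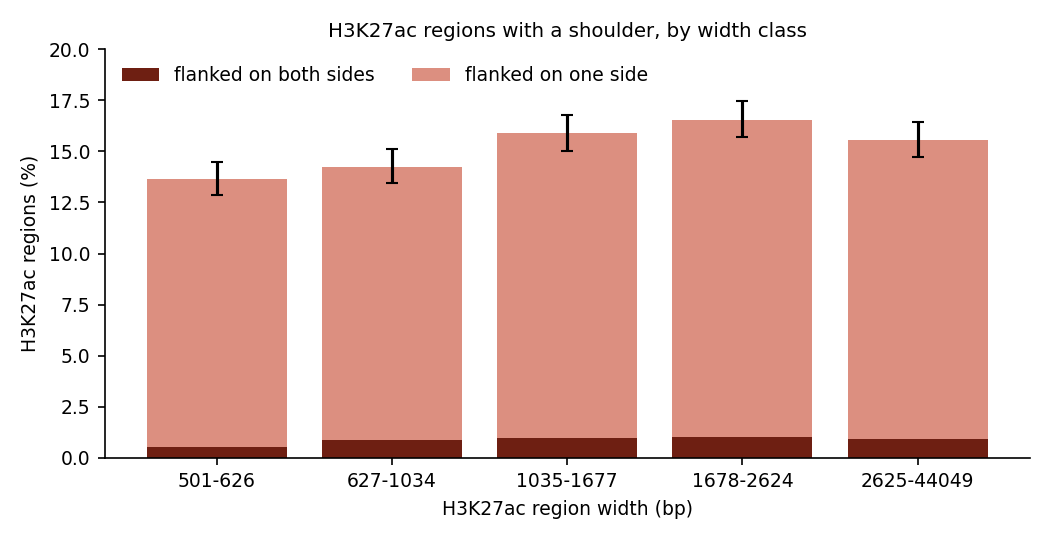
Percentage of H3K27ac regions with shoulders on both sides (dark) or on one side (light) in 5 width classes (x axis, bp); error bars are exact 95% binomial intervals of the total. The total lies between 13.7% and 16.6% in every class.

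Most flanked regions had H3K4me1 beside them and not in them. Of the 5258, 3739 (71.1%) overlapped no H3K4me1 region at all and 1519 (28.9%) overlapped one as well. A lack of overlap was not particular to flanked regions. Of the 29380 H3K27ac regions without a shoulder, 18950 overlapped no H3K4me1 region either and 10430 did. The flanked regions without an overlap had a median width of 1328 bp and the flanked regions with one 2036 bp. In H3K27ac score per kb, flanked regions had a median of 32.1, overlapping regions without a shoulder 31.2, regions with neither 25.5, and all regions 27.9. Regions flanked on both sides had 36.4 per kb, and those flanked on one side had 32.0.

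EHF peaks were found in the flanked H3K27ac regions and hardly at all in the shoulders. Of the flanked regions, 158 held a replicate 1 peak, or 3.005% (2.56% to 3.50%), where 2.65% of all H3K27ac regions did. For replicate 2 the count was 608, or 11.6% (10.7% to 12.5%), where the share over all H3K27ac regions was 8.99%. Shared sites were in 96 flanked regions, or 1.83% (1.48% to 2.23%), where the share over all was 1.71%. Replicate 2 therefore gave a share above that of the whole list, while for replicate 1 and for shared sites the interval included it. In the same order, regions that overlapped H3K4me1 without a shoulder had 4.26% (3.88% to 4.66%), 11.9% (11.2% to 12.5%) and 2.74% (2.44% to 3.07%). Regions with neither had 1.67%, 6.70% and 1.10%. The flanked share was thus below that of the overlapping regions for replicate 1 and shared sites, and similar to it for replicate 2. These shares take no account of width. Of the 768 shared sites themselves, 597 touched an H3K27ac region and 99 touched a flanked one, where flanked regions were 15.2% of all H3K27ac regions. A gap was touched by 7 and a shoulder by 2, and the same site can be in several of these counts.

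The shoulders held few peaks. A replicate 1 peak overlapped 8 shoulders (0.151%, where 0.485% of all H3K4me1 regions held one) and a replicate 2 peak 23 (0.434%, where 1.29% of all H3K4me1 regions did). A shared site overlapped 2 (0.0378%, where the share over the whole list was 0.228%). The whole list includes the H3K4me1 regions that overlap H3K27ac, which the rule keeps out of the shoulders and which had 0.811%, 2.11% and 0.423% in the same order. Regions beyond the limit, which also touch no H3K27ac, had 0.245%, 0.687% and 0.0818%. Their intervals overlapped those of shoulders in all 3 lists. By peak centre, shoulders had 1.13 replicate 1 peaks per Mb (0.309 to 2.90) and 4.82 replicate 2 peaks per Mb (2.81 to 7.71). The gaps had 3.70 and 9.47 per Mb in the same order of replicates, and the flanked H3K27ac regions 15.9 and 63.9. H3K4me1 regions beyond the limit had 3.30 (2.16 to 4.83) and 9.14 (7.15 to 11.5) per Mb. In both replicates the shoulders had the lowest density of these 4 compartments, although their intervals overlapped those of the gaps and of the distant H3K4me1 regions. No shared site was centred in a shoulder, over 3.53 Mb, which allows up to 1.05 per Mb by the exact 95% interval. The 2 that touched one did so at its margin. At chr14:37219943-37220443 the site shared 8 bp with the side that faced a 501 bp H3K27ac region 120 bp away. That site, at chr14:37220436-37220592, crossed the whole gap and reached into the acetylated region. At chr7:28103108-28104184 the site shared 43 bp with the side turned away from acetylation.

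Per base, the replicates differed in how flanked regions compared with other H3K27ac regions. Replicate 2 peaks had 63.9 centres per Mb in flanked regions (59.0 to 69.1), 48.6 in regions that overlapped H3K4me1 without a shoulder (46.0 to 51.3) and 45.8 in those with neither (43.3 to 48.4). Replicate 1 peaks had 15.9 (13.5 to 18.6), 16.1 (14.6 to 17.7) and 10.8 (9.59 to 12.1) in the same order. Shared sites had 9.76 (7.91 to 11.9), 10.3 (9.15 to 11.6) and 7.16 (6.20 to 8.23). All 3 lists were denser in flanked regions than in those with neither, with intervals that overlapped for shared sites and did not for either replicate. A higher density than in overlapping regions was seen with replicate 2 alone. The 3739 flanked regions without any overlapping H3K4me1 had 69.6 replicate 2 centres per Mb (63.0 to 76.7), above both other groups. They had 13.7 replicate 1 centres per Mb (10.9 to 17.05), an interval that overlapped those of both other groups.

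At similar width, the intervals for replicate 2 separated flanked regions from both other groups in the third width class only. In that class, 1035 to 1677 bp, 12.7% of the flanked regions held a replicate 2 peak (10.8% to 14.8%), against 8.55% of the overlapping regions without a shoulder (7.25% to 9.99%) and 7.90% of those with neither (7.10% to 8.76%). In the second class the shares were 5.85% (4.46% to 7.52%), 3.41% (2.56% to 4.45%) and 4.36% (3.77% to 5.01%) in the same order. In the narrowest class they were 1.56%, 1.49% and 1.37%, with overlapping intervals. In the widest class they were 23.0%, 21.1% and 14.8%. In the fourth they were 12.9%, 11.4% and 10.2%. With replicate 1 the widest class was the one in which the interval of flanked regions was clear of that of regions with neither, with 7.99% (6.44% to 9.77%) in flanked, 7.90% in overlapping and 4.29% (3.48% to 5.21%) in regions with neither. The replicate 1 shares in the same order of groups were 0.520%, 0.447% and 0.549% in the narrowest class, 0.924%, 1.51% and 0.854% in the second, 2.36%, 2.57% and 1.47% in the third, and 2.79%, 3.81% and 2.75% in the fourth. EHF-holding flanked regions were wide ones: the median width was 2761 bp with a replicate 1 peak and 1429.5 bp without, and 2178 bp with a replicate 2 peak and 1372 bp without. Their H3K27ac score per kb was higher too, at 53.5 with a replicate 1 peak and 31.9 without, and at 48.8 with a replicate 2 peak and 30.6 without. The share with EHF climbed with width in both other groups as well, so the link to width was not particular to flanked regions. Scores with and without EHF were not computed for the other groups.

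**Figure D4:**
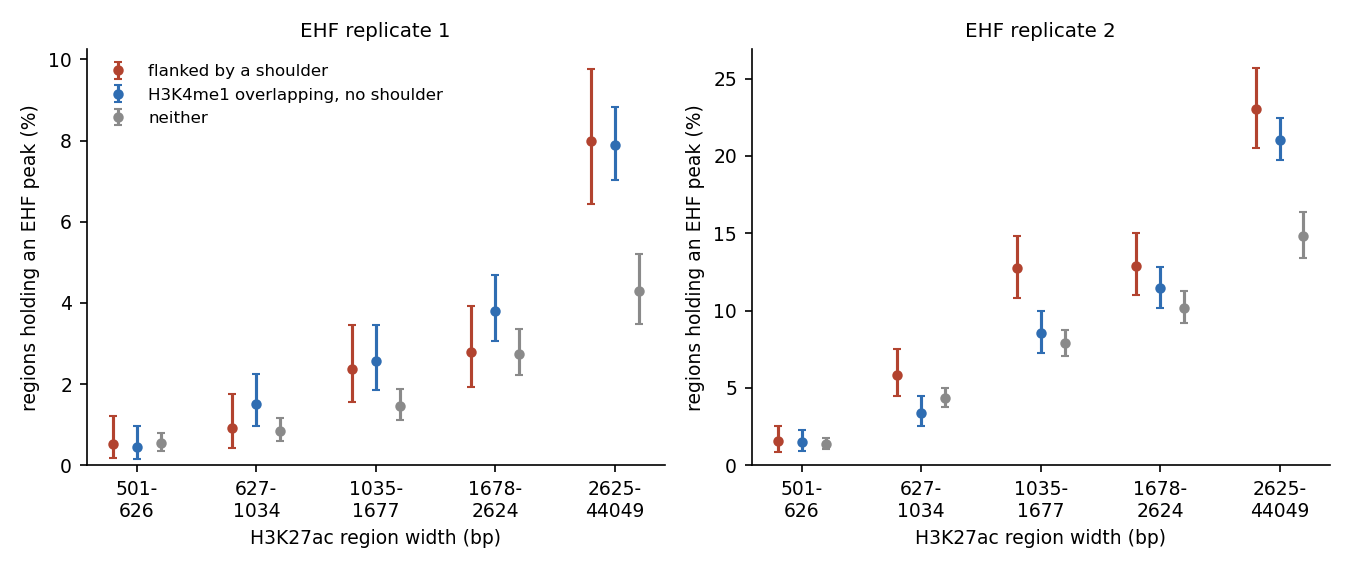
Percentage of H3K27ac regions holding an EHF peak (y axis, separate scales for replicate 1 and replicate 2) by width class (x axis, bp), for flanked regions (red), regions overlapping H3K4me1 without a shoulder (blue) and regions with neither (grey); bars are exact 95% binomial intervals. Shares climb with width in all 3 groups. In the third class the replicate 2 share is 12.7% in flanked regions, 8.55% in overlapping regions and 7.90% in regions with neither, and in replicate 1 the flanked and overlapping groups have overlapping intervals in every class.

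The share of flanked regions with EHF did not move steadily with the distance of the shoulder. Flanked regions had a median nearest gap of 589.5 bp with a replicate 1 peak and 631 bp without, and of 630 bp with a replicate 2 peak and 628.5 bp without. The share of regions with a replicate 2 peak was 11.3% for gaps under 250 bp, 11.2% from 250 bp, 11.3% from 500 bp, 13.8% from 1000 bp and 11.1% from 1500 bp to the limit. Over the same gap classes the replicate 1 share was 3.35%, 2.97%, 2.67%, 3.39% and 1.94%, and the share with a shared site 1.86%, 2.14%, 1.67%, 2.51% and 0.897%. The farthest class was the lowest of the 5 in all 3 lists, with intervals of 1.04% to 3.30% for replicate 1 and 0.330% to 1.94% for shared sites that overlapped those of the other classes. The share also varied little between regions flanked on both sides and on one. A replicate 2 peak was in 39 of the 299 regions flanked on both sides (13.0%, 9.44% to 17.4%) and in 11.5% of those flanked on one side, and a replicate 1 peak in 8 (2.68%, 1.16% to 5.20%) and 3.02%.

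Within the flanked regions EHF lay near the middle and not toward the shoulder. In regions flanked on one side, 66 of 150 replicate 1 peak centres were on the shoulder side of the midpoint (44.0%, 35.9% to 52.3%), as were 296 of 592 replicate 2 centres (50%, 45.9% to 54.1%). Each region was divided into 5 equal bins, counted from the shoulder edge. The middle bin held 41.3% of the replicate 1 and 35.8% of the replicate 2 centres, the bin next to the shoulder 11.3% and 8.11%, and the bin at the other edge 7.33% and 10.5%. Central placement was also seen without shoulders. The middle bin held 35.0% of the replicate 2 centres in all flanked regions, 34.9% in overlapping regions without a shoulder and 36.9% in regions with neither. For replicate 1 these values were 41.1%, 33.6% and 34.9%, and for shared sites 49.5%, 36.2% and 37.9%, with overlapping intervals in each list. The median distance from an EHF centre to the nearest base of the shoulder was 2144 bp for replicate 1 and 2010 bp for replicate 2 in regions flanked on one side. In the 2000 bp outside these regions, 18 replicate 1 and 65 replicate 2 centres lay on the shoulder side, against 15 and 47 on the other side. Without the centres that lay in another H3K27ac region, these counts were 18 and 62 on the shoulder side, against 12 and 38 on the other side.

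**Figure D5:**
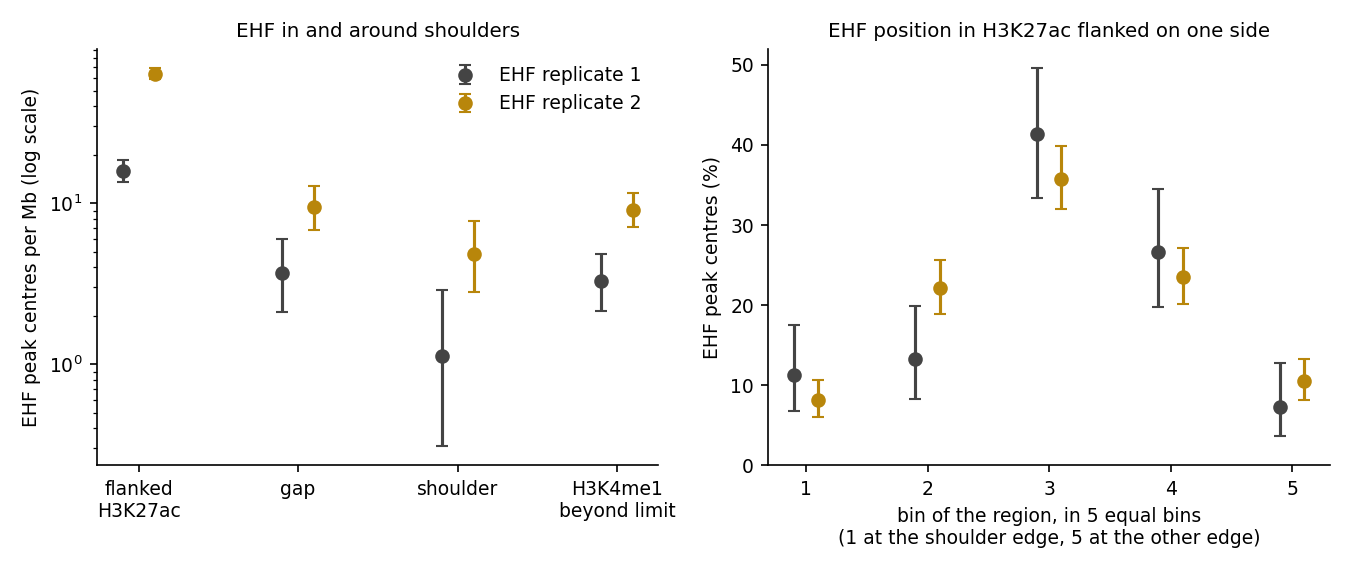
Left, EHF peak centres per Mb (log axis, exact 95% Poisson intervals) in flanked H3K27ac regions, in the gaps, in shoulders and in H3K4me1 regions beyond the limit; right, percentage of EHF centres in each of 5 equal bins of H3K27ac regions flanked on one side, from the shoulder edge to the other edge (exact 95% binomial intervals). Shoulders have 1.13 (replicate 1) and 4.82 (replicate 2) centres per Mb, and the middle bin holds 41.3% and 35.8% of the centres.

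There were 6 regions that combined shoulders on both sides with a shared EHF site. They were 2.01% of the 299 regions flanked on both sides (0.740% to 4.32%). Over all H3K27ac regions the share with a shared site was similar, at 1.71%. By the rank of the site in both EHF lists, the first was at chr8:38889229-38899640, a region of 10412 bp with gaps of 41 and 1207 bp and site scores of 19 (replicate 1) and 29 (replicate 2). The second, at chr3:157827299-157828794, was 1496 bp wide with gaps of 442 and 476 bp and overlapped no H3K4me1. Its site, at chr3:157827773-157827944, scored 16 and 24 and was centred 1002 bp from the low shoulder and 1411 bp from the high one. The third, at chr20:49574401-49575948, was 1548 bp wide with gaps of 1122 and 189 bp, and its site scored 12 and 27. The fourth, at chr1:243893129-243896005, held 1 further replicate 2 peak, and its shared site scored 12 and 21. The fifth, at chr18:12836636-12840097, had the smallest sum of gaps, 266 and 105 bp, with site scores of 11 and 18. The sixth, at chr8:67578808-67580398, had gaps of 702 and 754 bp and site scores of 8 and 14. From the low and the high shoulder, the site centre stood at 6582 and 5077 bp in the first region, 2052 and 806 bp in the third, 2060 and 2308 bp in the fourth, 1870 and 1962 bp in the fifth and 1645 and 1401 bp in the sixth.

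Shoulders were a similar part of the H3K4me1 list on most chromosomes, between 13.7% on chromosome 21 and 21.4% on chromosome 19. The share of H3K27ac regions that were flanked varied more, from 5.43% on chromosome 13 to 21.9% on chromosome 5. These chromosomes also differed in the number of H3K4me1 regions called per 100 H3K27ac regions, with 28.9 on chromosome 13 and 131 on chromosome 5. On chromosome 19, 10.6% of the H3K27ac regions were flanked, with 50.1 H3K4me1 regions per 100. The part of this ratio in the flanked share was not tested.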

How the data were processed

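The submitters' processing notes name Bowtie 1.0.0, HOMER 1.2 and the build hg19. Per the file headers, findPeaks was run on every library separately against input, with the factor setting for EHF and the histone setting for both marks, at a false discovery rate of 0.01 and 4-fold over input. Peak calling differed between EHF replicates 1 and 2. Peak size was 150 and 125 bp, minimum peak distance 300 and 250 bp, fragment length 150 and 94 bp and the tag threshold 8 and 7. The part of this in the spread between the replicates was not tested. Mark windows of 500 bp were stitched into regions, so widths and edges depend on the caller, and a base outside a region may still carry the mark below the threshold. The deposited score is the authors' normalized tag count, per the file headers, scaled to 10000000 tags per library. It has no error of its own and is no enrichment over input.

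From the deposited lists, overlaps of 1 bp or more, gaps and densities of peak centres were computed (Python 3.11.15; pandas 2.3.3; numpy 2.4.6; scipy 1.17.1). Shares have exact Clopper-Pearson and densities exact Poisson 95% intervals, which treat neighbouring regions as independent. The interval code was tested on simulated data. Members, classes and the rule for named regions were chosen with earlier results of these data known. Named were the regions with shoulders on both sides and a shared EHF site, the 5 with most shoulders (wider first), the 5 widest flanked, the 5 highest-scoring shoulders and the shoulders touched by a shared site. Alternatives varied the distance limit, list thresholds, stitching, overlap, the chromosome 17 stretch and the EHF replicates. Input libraries, genes and sequence were not analysed here. The sources used here do not give the culture of each EHF library, so the spread between the replicates may be technical.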

Additional observations from a re-analysis of the deposited data

How the results depend on the processing

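Of 48 alternative values, 30 stayed within the counting interval of the reported value (for the number of shoulders, within 1.5 times), 17 moved beyond it and 1 reversed. With a limit of 1000 bp the median gap was 411 bp, the share flanked on both sides 4.28% and the width difference between flanked and other H3K27ac regions 15 bp. With 5000 bp these were 1113 bp, 8.66% and 181 bp. Only H3K4me1 regions above the median score gave 2178 shoulders, 3.15% and 178 bp. Only H3K27ac regions above the median score gave a gap of 767 bp, 7.13% flanked on both sides, 3.21% holding a shared EHF site and the reversed width difference of -51 bp, from medians of 2271 bp in flanked and 2322 bp in other regions. Counting an overlap only from 50% of the H3K4me1 region gave 384 bp, 7.80% and 23 bp. With the list of a single EHF replicate, the share of flanked regions with EHF was between 3.005% (without replicate 2) and 11.6% (without replicate 1), against 1.83% for shared sites, since the single lists are longer. The density of EHF in flanked over other H3K27ac regions was 1.12 for shared sites (0.889 to 1.39) and between 1.07 and 1.35 in the alternatives. The value of 1.35 was that of replicate 2 alone, and replicate 1 alone gave 1.18. Replicate 2 had 63.9 centres per Mb in flanked regions (59.0 to 69.1) and 47.2 in the others (45.4 to 49.0). Both ratios were counted as unmoved against the wide interval of shared sites, so the count does not show this difference between replicates. The causes of the other changes were not tested. No paired analysis was possible because only EHF and input have numbered libraries and the inputs were not analysed here. In EHF replicate 1, 1537 peaks limit what can be seen in shoulders, where 8 overlapped.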
